A study of Naumovozyma castellii with 24 samples.

Results

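The genes described here encode the respiratory complexes and the ATP synthase of Naumovozyma castellii, a budding yeast related to Saccharomyces cerevisiae. They were taken by symbol from the RefSeq annotation of assembly ASM23734v1. Symbols had to begin with COX, QCR, SDH or ATP followed by a digit, and COX5B was left out. This gave 48 of the 5648 genes in the counts, and all 48 passed the filter on low counts in both experiments. By their roles in S. cerevisiae, 29 encode subunits and 19 encode assembly or expression factors. The subunits are 3 of complex II (SDH1, SDH3 and SDH4), 6 of complex III, 7 of complex IV and 13 of the ATP synthase. The factors serve complex II (4 genes), complex IV (9 genes) and the ATP synthase (6 genes). Some subunits that the rule did not match are given among 11 partner genes, and those encoded in mitochondrial DNA are not analysed here.

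RNA-seq counts came from 24 libraries in 10 groups, all of strain background DBP004 grown in YPD at 30 °C. In the deletion experiment, cultures started at an A600 of 0.2 in 21% oxygen, reached an A600 of 1 and then grew for 2 h more with 0.6 mM CoCl2 or without it. The strains carried rox1-/-, rox2-/-, rox1/rox2-/- or neither deletion (WT). They had 2 libraries each with CoCl2, and without it rox1 and rox1/rox2 had 2 and rox2 and WT had 3. In the oxygen experiment, WT grew for 6 h at 1% oxygen (hypoxia, 3 libraries) or 21% oxygen (normoxia, 3 libraries), with no CoCl2 in either. The samples are described as biological replicates, and p-values set each difference against the spread between replicates. In the deletion experiment that spread was estimated over all 18 libraries, not only over those compared. Gene counts per library were 5.59 M to 12.74 M in the deletion experiment and 11.99 M to 12.18 M in the oxygen experiment. ROX1 had 0 or 1 count in each of the 8 libraries labelled as lacking it and 107 to 392 in the other 10 libraries of that experiment. The locus deleted as ROX2 has no symbol in the annotation, so its counts are not given.

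In the respiratory chain, complex II (succinate dehydrogenase) passes electrons from succinate to ubiquinone, complex III (the cytochrome bc1 complex) passes them on to cytochrome c, and complex IV (cytochrome c oxidase) hands them to oxygen. Complexes III and IV pump protons, and the ATP synthase lets these protons flow back to make ATP. In S. cerevisiae many nuclear genes of these complexes are activated by Hap1 and the HAP complex and held down by glucose, and Rox1 is a repressor of genes used in low oxygen. CoCl2 is a salt used to mimic low oxygen. The comparisons asked whether these genes changed in 1% oxygen, whether CoCl2 changed them, and whether losing ROX1, ROX2 or both altered either level or response.

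In 1% oxygen, subunit genes of complexes III and IV fell together, while those of complex II and the ATP synthase did not pass the unpaired test. Of the 48 genes, 13 fell and 1 rose, where 3.85% of all 5559 tested genes fell and 2.64% rose. All 7 complex IV subunit genes fell, with a median log2 fold change of -0.61, and 5 of the 6 complex III subunit genes fell, with a median of -0.56 over the 6. None of the 3 complex II genes (median -0.13) or the 13 ATP synthase subunit genes (median -0.10) was called. An unadjusted p under 0.05 was found in 6 of the 13 ATP synthase genes, above the 22.1% of all tested genes that had one. It was found in 1 of the 3 complex II genes, which is near that share for so few genes. Of these 16 genes, 14 had a log2 fold change below 0. With the replicate number as a block, ATP14 and ATP19 passed as lower in hypoxia (adjusted p = 0.0081 and 0.0016) and ATP5 as higher (adjusted p = 0.0394), while no complex II subunit passed. The median over all tested genes was 0.00. Calls are adjusted p under 0.05 in edgeR's quasi-likelihood test, adjusted over all tested genes, and log2 fold changes are given with their SE.

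**Figure D1:**
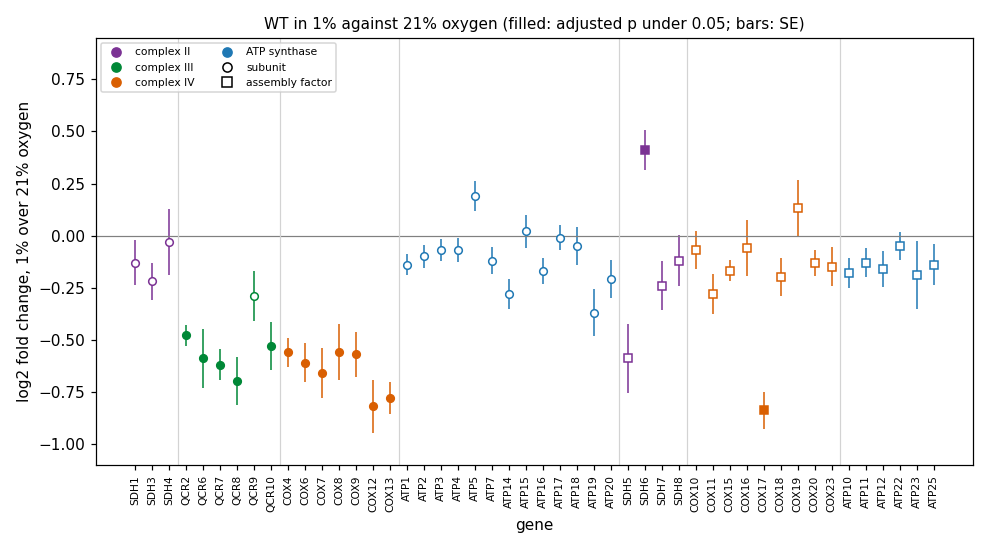
Log2 fold change of each of the 48 genes in WT at 1% over 21% oxygen, with bars of 1 SE from the edgeR fit. Filled symbols passed an adjusted p of 0.05. The 7 complex IV subunit genes lie between -0.82 and -0.56, the 13 ATP synthase subunit genes between -0.37 and 0.19, and COX17 and SDH6 are the filled squares.

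The largest falls among subunits were those of COX12 and COX13 of complex IV, followed by QCR8 of complex III and COX7 of complex IV. COX12, a small subunit on the intermembrane-space side, had 8.54, 8.03 and 8.42 CPM (read counts scaled for library size by TMM) in hypoxia, against 15.9, 13.0 and 15.2 CPM in normoxia. COX13 had 22.4, 23.0 and 24.1 CPM in hypoxia, against 39.8, 40.6 and 38.8 CPM in normoxia. COX7 had 15.6, 16.7 and 13.2 CPM in hypoxia, against 22.4, 22.8 and 26.7 CPM in normoxia. In each of these genes every hypoxia library lay below every normoxia library. The log2 fold changes were -0.82 ± 0.126 for COX12 (adjusted p = 0.00412), -0.78 ± 0.0754 for COX13 (adjusted p = 0.000253) and -0.66 ± 0.121 for COX7 (adjusted p = 0.0115). COX4, COX6, COX8 and COX9 fell by 0.56 to 0.61 on the log2 scale.

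In complex III, QCR7 and QCR8 encode small subunits that bind cytochrome b early in assembly. QCR8 had 14.2, 14.8 and 17.8 CPM in hypoxia, against 24.4, 27.6 and 23.7 CPM in normoxia (log2 fold change -0.70 ± 0.116, adjusted p = 0.00625). QCR7 had 27.9, 26.6 and 27.8 CPM in hypoxia, against 43.0, 43.2 and 40.0 CPM in normoxia (log2 fold change -0.62 ± 0.0736, adjusted p = 0.000834). Neither gene's libraries overlapped between the groups. QCR2, which encodes a core protein, fell by 0.48, QCR6 by 0.59 and QCR10 by 0.53. QCR9 did not pass without the replicate block, with 64.1, 46.8 and 63.5 CPM in hypoxia, against 67.5, 65.6 and 79.5 CPM in normoxia (log2 fold change -0.29 ± 0.121, adjusted p = 0.203), and passed with it (adjusted p = 0.036).

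Over subunits, all 13 genes of complexes III and IV had every hypoxia library below every normoxia library, and so had 6 of the 16 genes of complex II and the ATP synthase, against 13.8% of all tested genes. Summed over its subunit genes, complex IV had 211.4, 210.6 and 227.7 CPM in hypoxia, against 330.9, 323.9 and 343.5 CPM in normoxia. Complex III summed to 303.0, 287.9 and 309.0 CPM in hypoxia, against 408.0, 424.3 and 436.4 CPM in normoxia. The ATP synthase sums lay closer together, at 2244, 2153 and 2198 CPM in hypoxia, against 2333, 2330 and 2397 CPM in normoxia. CPM are shares of a culture's RNA, so fewer cells that express a gene and less of its RNA per cell cannot be told apart.

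Of the 19 assembly factor genes, 1 fell and 1 rose in hypoxia, near the shares over all tested genes (3.85% fell and 2.64% rose). The one that fell had the lowest log2 fold change of all 48 genes. COX17, the copper chaperone of complex IV, had 202.9, 186.1 and 233.4 CPM in hypoxia, against 362.0, 406.5 and 342.0 CPM in normoxia (log2 fold change -0.84 ± 0.0894, adjusted p = 0.000459). Per kb of gene length it averaged 910.0 CPM in hypoxia and 1623.0 CPM in normoxia, above the other 47 genes in both groups. The 8 other complex IV factors, among them COX10 and COX15 for haem A synthesis and COX11 for copper insertion, lay between -0.28 and 0.13 and none was called. SDH6, which in S. cerevisiae helps mature the iron-sulfur subunit of complex II, rose, with 53.7, 44.4 and 51.1 CPM in hypoxia, against 38.5, 33.3 and 40.3 CPM in normoxia (log2 fold change 0.41 ± 0.097, adjusted p = 0.0352). The median over the 19 factors was -0.15.

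The sources give no paired design for the oxygen experiment. Its replicate numbers were taken as pairs because same-numbered libraries deviated together, with correlations across genes of 0.152, 0.307 and 0.137. Some same-numbered libraries of the deletion experiment, not taken as pairs, correlated as strongly (0.331 for replicate 2 of WT with and without CoCl2). Such values therefore do not establish pairing. With the number as a block, 21 of the 48 genes were called in place of 14. The 7 added were QCR9, SDH5, ATP19, COX15, COX11 and ATP14, all lower in hypoxia, and ATP5, which was higher (block log2 fold change 0.18). The share of all tested genes called with the block is not given here, so the 7 are not read as particular to these complexes. Of the 14, 9 were called in every planned setting, and QCR6, QCR10, COX8, COX9 and SDH6 lost their call in at least 1.

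Among the partner genes outside the symbol rule, 7 of 11 fell in hypoxia, where 3.85% of all tested genes fell and 2.64% rose. They were CYC1 for cytochrome c (log2 fold change -1.44 ± 0.0985), NDE1 for an external NADH dehydrogenase (-0.90 ± 0.21), the complex III genes RIP1 (-0.52), CYT1 (-0.39) and COR1 (-0.36), COX5B (-0.45), and TIM11 for subunit e of the ATP synthase (-0.34). Of 38 further assembly and translation factors outside the rule, 2 fell (COA2 and PNT1) and none rose, near the share over all tested genes.

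With CoCl2 in WT, nearly all subunit genes rose and none of the 48 genes fell. Of the 48, 35 rose, where 27.7% of all 5544 tested genes rose and 19.4% fell. All 7 complex IV subunit genes (median log2 fold change 2.34), all 6 of complex III (2.38), all 3 of complex II (1.85) and 11 of 13 of the ATP synthase (1.49) were called. In all 29 subunit genes both CoCl2 libraries lay above the 3 WT libraries without CoCl2, as in 38.5% of tested genes. Scaling by total counts in place of TMM moved the median of all genes to 0.246 and left all 29 subunits above 0, with a median of 2.10 against 1.85.

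**Figure D2:**
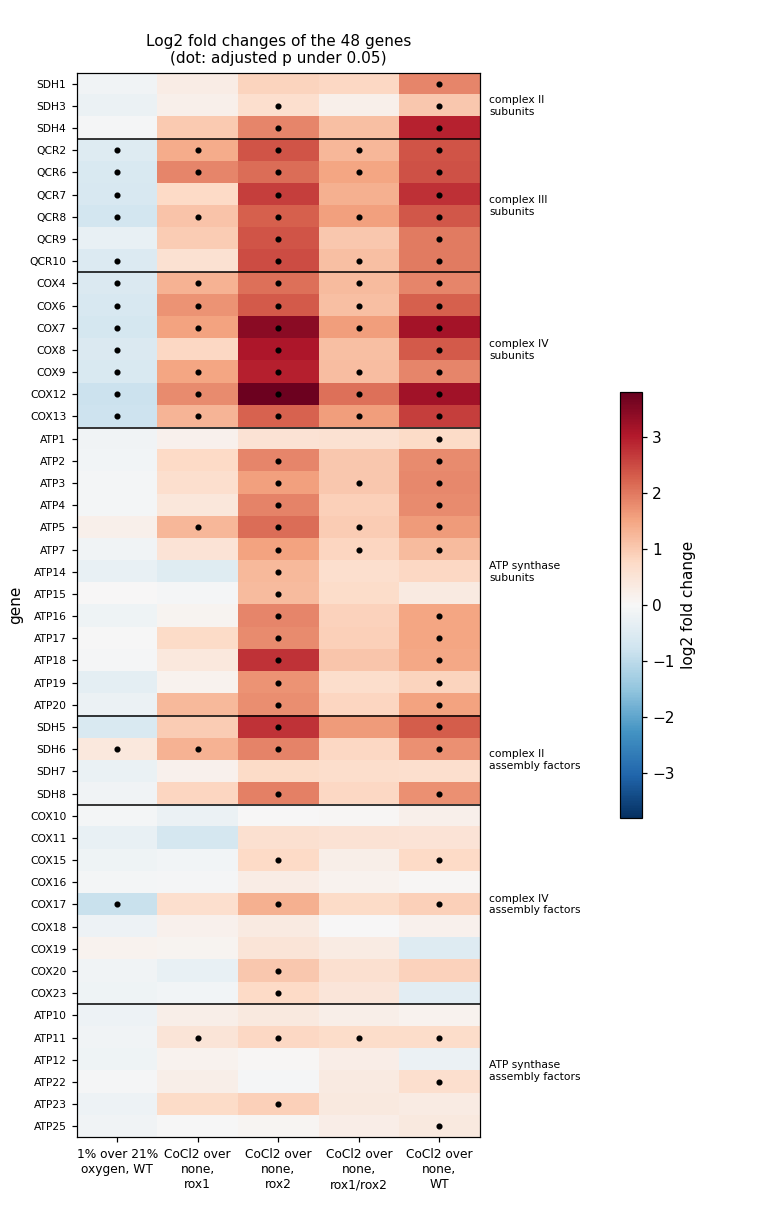
Log2 fold changes of the 48 genes (rows, by complex and class) in hypoxia and with CoCl2 in rox1, rox2, rox1/rox2 and WT (columns), with a dot where the adjusted p was under 0.05. Complex III and IV subunits are blue in hypoxia (medians -0.56 and -0.61) and red with CoCl2 in WT (medians 2.38 and 2.34).

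In complex IV the responses ran from COX4 to COX12. COX12 had 118.1 and 90.4 CPM with CoCl2 in WT, against 9.07, 12.2 and 13.3 CPM without it, a 9.09-fold rise (log2 fold change 3.18 ± 0.245, adjusted p = 9.81e-07). Its lowest CoCl2 library lay far above the highest one without. COX4 had 163.2 and 147.6 CPM with CoCl2, against 40.3, 46.7 and 42.6 CPM without it, a 3.6-fold rise (adjusted p = 1.29e-06). COX7 and COX13 rose 8.93-fold and 6.24-fold, which left COX4 with the smallest rise of the 7. In complex III, QCR7 had 64.2 and 76.9 CPM with CoCl2, against 9.15, 9.76 and 11.7 CPM without it, a 6.91-fold rise (adjusted p = 3.92e-05). QCR10 had 61.1 and 48.4 CPM with CoCl2, against 10.4, 15.4 and 16.0 CPM without it, a 3.93-fold rise (adjusted p = 6.68e-05). QCR7 and QCR10 had the largest and smallest changes of the 6, and neither gene's groups overlapped.

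Complex II spanned a wide range for 3 genes. SDH4, a membrane anchor, had 28 and 23.7 CPM with CoCl2 in WT, against 2.37, 3.64 and 4.22 CPM without it (log2 fold change 2.93 ± 0.346, adjusted p = 2.58e-05). SDH3, the other membrane subunit, had 47.1 and 45.1 CPM with CoCl2, against 20.9, 20.7 and 27.3 CPM without it (log2 fold change 1.01 ± 0.191, adjusted p = 0.000826). SDH1, the flavoprotein that oxidises succinate, rose 3.61-fold.

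The ATP synthase genes rose less than those of complexes III and IV in their median. ATP3, the gamma subunit of the rotor, had 288.5 and 172.5 CPM with CoCl2 in WT, against 63.7, 63.0 and 66.1 CPM without it (log2 fold change 1.84 ± 0.216, adjusted p = 2.45e-05). ATP15, the epsilon subunit of the same stalk, had 37.6 and 29.6 CPM with CoCl2, against 24, 29.3 and 26.7 CPM without it, and did not pass (log2 fold change 0.34 ± 0.204, adjusted p = 0.187). The catalytic pair differed, with ATP2 (beta) up 3.5-fold and ATP1 (alpha) up 1.67-fold (adjusted p = 0.0435), and ATP1 was called in only 6 of 13 planned settings. Of the peripheral stalk genes, ATP4, ATP5 and ATP7 rose by 1.80, 1.61 and 1.21 on the log2 scale and ATP14 did not pass (0.79 ± 0.342, adjusted p = 0.0726). The median of the 13 genes was 1.04 without WT CoCl2 replicate 1.

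**Figure D3:**
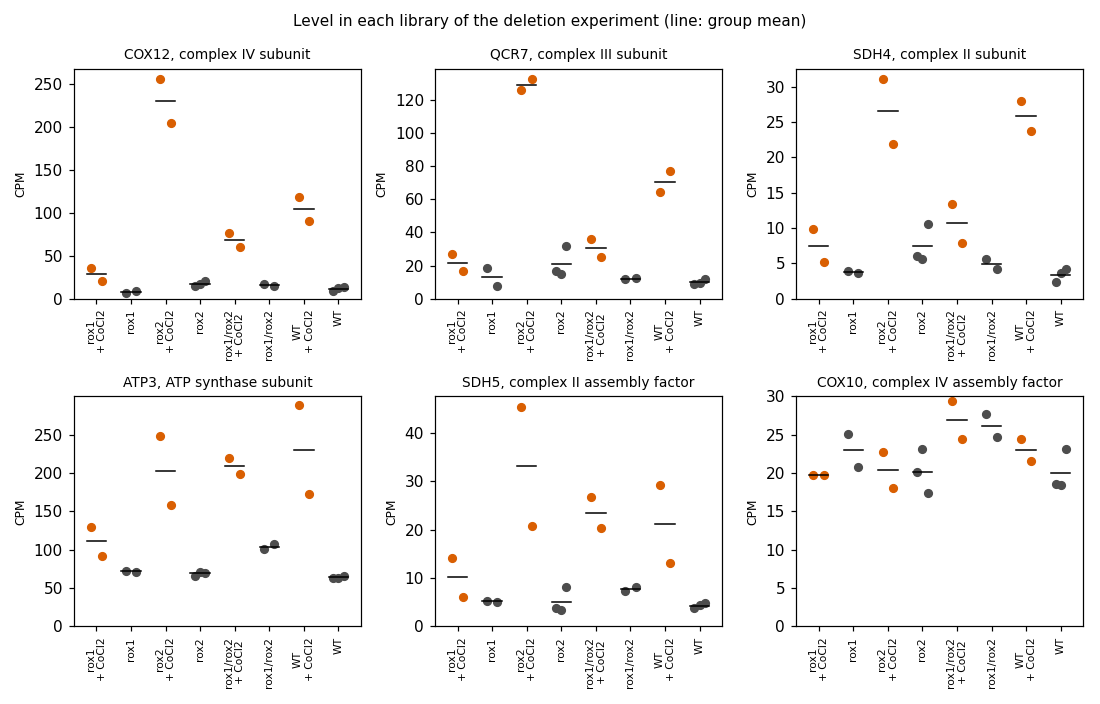
CPM of 6 genes in each library of the deletion experiment, with a line at each group mean, orange for libraries with CoCl2 and grey for those without. COX12, QCR7 and SDH4 with CoCl2 are lower in rox1 than in WT (35.8 and 20.6 CPM against 118.1 and 90.4 CPM for COX12), while COX10 stays between 17.4 and 29.4 CPM in all 18 libraries.

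Of the 19 assembly factor genes, 8 rose with CoCl2 in WT, where 27.7% of all tested genes rose, and the median was 0.52. Complex II factors led. SDH5, needed to attach the flavin to Sdh1, had 29.3 and 13.1 CPM with CoCl2, against 3.73, 4.44 and 4.85 CPM without it (log2 fold change 2.30 ± 0.444, adjusted p = 0.000923). SDH8, a chaperone of flavinated Sdh1, had 16.0 and 7.66 CPM with CoCl2, against 3.39, 3.55 and 3.8 CPM without it (log2 fold change 1.74 ± 0.338, adjusted p = 0.000966). SDH6 had 22.9 and 17.4 CPM with CoCl2, against 6.78, 4.26 and 7.28 CPM without it (log2 fold change 1.73 ± 0.214, adjusted p = 3.70e-05). All 3 genes had non-overlapping groups, and the CoCl2 libraries of SDH5 and SDH8 lay further apart than those of SDH6.

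Of the 9 complex IV factors, 2 were called, near the share of all tested genes that rose (27.7%). COX17 had 76.8 and 52.7 CPM with CoCl2 in WT, against 33.7, 35.0 and 35.0 CPM without it (log2 fold change 0.91 ± 0.257, adjusted p = 0.0106), and COX15 rose by 0.75. The other 7 lay between -0.50 (COX19) and 0.89 (COX20). ATP11, a chaperone of the beta subunit, rose by 0.69, ATP22 by 0.64 and ATP25 by 0.37, the last of these in 7 of 13 planned settings. All 11 partners outside the rule rose, from TIM11 (0.88) to NDE1 (4.66), as did 18 of the 38 outside factors, against 27.7% of all tested genes.

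The 13 genes that fell in hypoxia all rose with CoCl2 in WT. They are the whole list of these genes that fell in hypoxia and 37.1% of the list that rose with CoCl2. Among all genes tested in both experiments, 105 of the 214 that fell in hypoxia rose with CoCl2 (49.1% of that list and 6.88% of the 1526 that rose). The 2 contrasts share no library. COX12, for example, had a log2 fold change of -0.82 in hypoxia and 3.18 with CoCl2, and COX17 -0.84 and 0.91. SDH6 rose in both.

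Levels differed widely between genes per kb of gene length. In WT, mean levels per kb ran from 37.6 (SDH1) and 46.8 (SDH4) CPM to 683.8 (ATP5) and 605.8 (ATP2) CPM with CoCl2, and from 6.18 (SDH4) and 10.4 (SDH1) CPM to 224.8 (ATP5) and 191.2 (ATP1) CPM without it, among subunits. COX12 stood at 418.8 CPM per kb with CoCl2 and at 46.2 without it. The genes are short, with a median of 477 bases from annotated start to end and a range of 183 to 2088, against a median of 1242 for all genes with an entry.

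**Figure D4:**
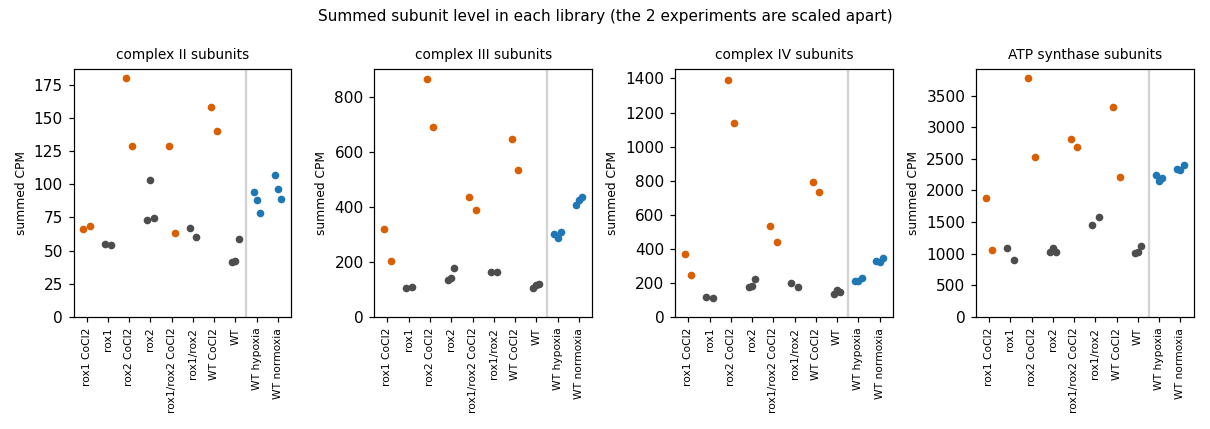
Summed CPM of the subunit genes of each complex in every library, with CoCl2 in orange, without it in grey and the oxygen experiment in blue. Complex IV sums are 369.6 and 245.9 CPM in rox1 with CoCl2 and 792.1 and 732.2 CPM in WT with CoCl2. The oxygen experiment was scaled apart and its levels cannot be set against the others.

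Every deletion strain was also compared with and without CoCl2. In rox1, 12 of the 48 genes rose with CoCl2 and none fell, against 4.85% of tested genes that rose and 3.21% that fell. In rox2, 36 rose and none fell, against 26.3% and 21.8%. In rox1/rox2, 14 rose and none fell, against 4.38% and 1.41%. Over the 29 subunits the median log2 fold change was 0.76 for rox1, 2.09 for rox2, 1.03 for rox1/rox2 and 1.85 for WT. With a correction for gene length it was 1.82 for rox2 and 1.9 for WT, so the order of rox2 and WT depended on that choice.

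In rox1 the called genes lay mainly in complexes IV and III. They were 6 of 7 complex IV subunits (not COX8), QCR2, QCR6 and QCR8 of complex III, 1 of 13 ATP synthase subunits (ATP5), none of complex II, and the factors SDH6 and ATP11. COX12 rose 3.5-fold, with 35.8 and 20.6 CPM with CoCl2 in rox1, against 7.13 and 8.81 CPM without it (adjusted p = 0.00177). Fitting only the 4 rox1 libraries left none of the 48 genes called, with 46 genes called higher and 6 lower among all genes.

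In rox2 the called genes were all 13 subunits of complexes III and IV, 12 of 13 of the ATP synthase (not ATP1), SDH3, SDH4 and 9 factors. COX12 had 255.6 and 205.1 CPM with CoCl2 in rox2, against 14.2, 17.5 and 21.0 CPM without it, a 13.2-fold rise (adjusted p = 4.03e-07). In rox1/rox2 the called genes were 6 of 7 complex IV subunits, 4 of 6 of complex III, ATP3, ATP5, ATP7 and the factor ATP11. COX12 had 76.0 and 60.7 CPM with CoCl2 in rox1/rox2, against 16.9 and 15.3 CPM without it, a 4.24-fold rise (adjusted p = 0.00126). The rox1/rox2 count rested on few libraries: it was 4 without rox1/rox2 replicate 1, 3 without rox1/rox2 replicate 2 and 6 without rox1/rox2 CoCl2 replicate 1.

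Without CoCl2, edgeR called none of the 48 genes against WT in any deletion strain (rox1, rox2, rox1/rox2), where 0.0541%, 0.0722% and 0.108% of all tested genes were called. At an unadjusted p under 0.05 rox1 had 4 of the 48, rox2 had 12 and rox1/rox2 had 13, where 8.37%, 7.32% and 16.9% of all tested genes did, so the rox1 count is at that share. DESeq2 called 1 in rox1 (ATP11), 1 in rox2 (SDH3) and 2 in rox1/rox2 (SDH6 and SDH8), all higher than in WT. Its shares over all tested genes are not given here, so these calls are not read as particular to the 48 genes. In rox1/rox2 all 29 subunits had a log2 fold change above 0, between 0.11 and 0.83 with a median of 0.48, and both rox1/rox2 libraries lay above the 3 WT libraries in 37 of the 48 genes, as in 35.0% of all tested genes. All 29 also stayed above 0 with total-count scaling, which moved the median of all genes to 0.283. SDH8 had 10.3 and 7.26 CPM in rox1/rox2, against 3.39, 3.55 and 3.8 CPM in WT. When only these 5 libraries were fitted, 33 of the 48 were called higher, among 1340 genes higher and 1456 lower. In rox2, all 13 subunits of complexes III and IV lay above 0 with a median of 0.51, and 12 of them did so with total-count scaling. In rox1 the complex IV subunits had a median of -0.47.

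With CoCl2 in all strains, rox1 had lower levels than WT across the subunits. The WT CoCl2 libraries serve all 3 deletion comparisons, so these are not independent of each other. They were fitted unpaired, though same-numbered libraries correlated with WT CoCl2 at 0.254 (rox1), 0.732 (rox2) and 0.658 (rox1/rox2). In rox1, 21 of the 48 genes fell and 1 rose, against 12.9% of tested genes that fell and 4.65% that rose. The falls were in 7 of 7 complex IV, 4 of 6 complex III, 2 of 3 complex II and 7 of 13 ATP synthase subunits, and in COX15. All 29 subunits lay below 0, with a median of -1.13, and in 26 of them both rox1 libraries lay below both WT libraries, as in 31.3% of tested genes. The 19 factors had a median of -0.22.

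COX12 had 35.8 and 20.6 CPM in rox1 with CoCl2, against 118.1 and 90.4 CPM in WT with CoCl2 (log2 fold change -1.89 ± 0.267, adjusted p = 0.00102). COX7 had 26.9 and 21.7 CPM in rox1, against 69.5 and 98.1 CPM in WT (log2 fold change -1.78 ± 0.269, adjusted p = 0.0013). COX13 had 67.3 and 44.7 CPM in rox1, against 163.5 and 143.4 CPM in WT (log2 fold change -1.46 ± 0.229, adjusted p = 0.00149). The groups did not overlap in any of these. COX4 had 90.6 and 64.1 CPM in rox1, against 163.2 and 147.6 CPM in WT (adjusted p = 0.00209). COX9 had 34.0 and 20.1 CPM in rox1, against 59.8 and 58.0 CPM in WT (adjusted p = 0.00588). QCR2 had 127.0 and 74.0 CPM in rox1, against 249.0 and 190.7 CPM in WT (adjusted p = 0.00488). In each gene both rox1 libraries were below both WT libraries, and replicate 2 was the lower of the rox1 pair.

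ATP12, a chaperone of the alpha subunit, was the gene that rose, with 93.7 and 95.1 CPM in rox1 with CoCl2, against 73.8 and 55.3 CPM in WT with CoCl2 (log2 fold change 0.55 ± 0.158, adjusted p = 0.0302). Of the 22 calls, only COX7 was made in every planned setting. The count was 4 without rox1 CoCl2 replicate 2, 8 without WT CoCl2 replicate 1 and 2 when only the 4 libraries compared were fitted. Reads that matched several places came to 42.84 and 37.72 per 100 gene counts in rox1 with CoCl2, against 24.43 and 23.76 in WT with CoCl2, and their part in the result was not tested.

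The change with CoCl2 itself was tested for a difference between strains. All 29 subunits had a smaller response in rox1 than in WT, with differences of -2.03 to -0.29 and a median of -1.05, and 4 genes passed, against 3.9% of tested genes with a lower response. They were QCR7 (difference of log2 fold changes -2.03 ± 0.525, adjusted p = 0.0435), COX7 (-1.62 ± 0.378, adjusted p = 0.0327), COX13 (-1.37 ± 0.311, adjusted p = 0.0305) and ATP3 (-1.22 ± 0.323, adjusted p = 0.0479). QCR7 had 27.2 and 16.5 CPM with CoCl2 and 18.5 and 7.64 CPM without it in rox1, against 64.2 and 76.9 CPM with and 9.15, 9.76 and 11.7 CPM without it in WT. The rox1 groups of QCR7 overlapped and the WT groups did not. ATP3 had 130.0 and 91.6 CPM with CoCl2 and 72.3 and 71.2 CPM without it in rox1, against 288.5 and 172.5 CPM with and 63.7, 63.0 and 66.1 CPM without it in WT.

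None of the 4 was called in every planned setting. The count was 0 when WT replicate 1, 2 or 3, rox1 replicate 1 or rox1 CoCl2 replicate 2 was left out. It was 1 without WT CoCl2 replicate 1 and 13 without rox1 CoCl2 replicate 1.

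**Figure D5:**
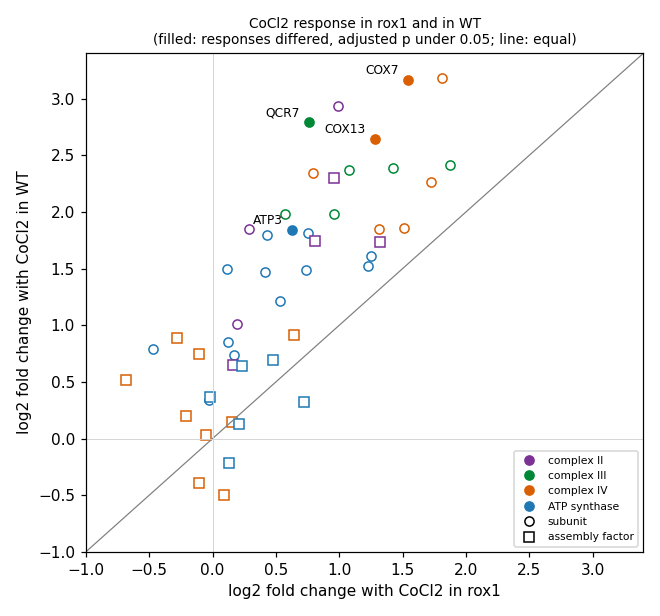
Log2 fold change with CoCl2 in rox1 (horizontal axis) and in WT (vertical axis) for the 48 genes, with a line where the responses are equal. Filled symbols mark the 4 genes whose responses differed at an adjusted p of 0.05. All 29 subunit circles lie above the line.

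For rox1/rox2 the differences had a median of -0.83 over the subunits and 28 of 29 lay below 0, but none of the 48 genes passed, where 0.397% of tested genes did. At an unadjusted p under 0.05 there were 17 of the 48, where 14.8% of tested genes lay, and DESeq2 called 4. The rox2 response did not differ by the test in any of the 48 genes, where 0.0902% of tested genes passed. At an unadjusted p under 0.05 there were 9 of the 48, where 13.9% of tested genes lay, and DESeq2 called 1. The shares of all tested genes that DESeq2 called for these responses are not given here. The median over subunits was 0.25 in rox2 and -0.20 with a correction for gene length, so its sign depended on that choice.

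Against WT with CoCl2, rox2 with CoCl2 had 5 of the 48 genes higher and none lower, against 2.69% and 0.884% of tested genes. COX9 had 219.3 and 171.7 CPM in rox2 with CoCl2, against 59.8 and 58.0 CPM in WT with CoCl2 (log2 fold change 1.73 ± 0.226, adjusted p = 0.00261). COX12 had 255.6 and 205.1 CPM in rox2, against 118.1 and 90.4 CPM in WT (1.14 ± 0.257, adjusted p = 0.0314). COX7 had 194.1 and 172.2 CPM in rox2, against 69.5 and 98.1 CPM in WT (1.13 ± 0.259, adjusted p = 0.0337). These complex IV genes had every rox2 library above every WT library, as had 1060 of all 5544 tested genes. ATP18 had 106.1 and 81.3 CPM in rox2, against 48.6 and 30.0 CPM in WT (1.25 ± 0.29, adjusted p = 0.0349). ATP19 had 66.7 and 41.3 CPM in rox2, against 30.8 and 21.5 CPM in WT (1.04 ± 0.268, adjusted p = 0.0495). ATP18 and ATP19 encode small membrane subunits of the ATP synthase.

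These 5 calls were not kept when gene length was corrected for: none of the 48 genes was then called, COX9 stood at 0.57 and the subunit median at 0.01 in place of 0.64. Leaving out WT CoCl2 replicate 1, WT CoCl2 replicate 2 or rox2 CoCl2 replicate 1 left 1 call. Reads outside genes made up 19.88% and 10.13% in rox2 with CoCl2, against 7.90% and 7.89% in WT with CoCl2, and their part in the result was not tested.

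In rox1/rox2 with CoCl2, 2 of the 48 genes fell and 2 rose against WT with CoCl2, where 3.77% of tested genes fell and 1.24% rose. The count that fell is near the share over all tested genes. COX7 had 46.5 and 33.6 CPM in rox1/rox2, against 69.5 and 98.1 CPM in WT (log2 fold change -1.06 ± 0.263, adjusted p = 0.035). COX13 had 91.1 and 67.7 CPM in rox1/rox2, against 163.5 and 143.4 CPM in WT (-0.95 ± 0.226, adjusted p = 0.0305). Both complex IV genes were lower in rox1/rox2 without overlap, as were 1218 of all 5544 tested genes. ATP12 had 122.1 and 113.6 CPM in rox1/rox2, against 73.8 and 55.3 CPM in WT (0.87 ± 0.158, adjusted p = 0.007). COX23, which encodes a small intermembrane-space protein needed for complex IV, had 32.0 and 35.6 CPM in rox1/rox2, against 19.2 and 13.3 CPM in WT (1.05 ± 0.281, adjusted p = 0.0479). All 13 subunits of complexes III and IV lay below 0 (median -0.61), and 9 of the 16 subunits of complex II and the ATP synthase did (median -0.08). With total-count scaling, which moved the median of all genes to 0.135, those medians were -0.45 and 0.07, so the sign turned for complex II and the ATP synthase. No gene stayed called without WT CoCl2 replicate 2, and the count was 2 without WT CoCl2 replicate 1 and 1 without rox1/rox2 CoCl2 replicate 2.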

How the data were processed

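The values are the raw counts of reads per gene that the authors deposited for 24 libraries. TopHat2 and HTSeq 0.6.0 are the tools named for alignment and counting, per the submitters' processing notes, and build, annotation and strand setting are not given in the sources used here. The deletion experiment used stranded single-end reads of 42 bp, the oxygen experiment stranded paired-end reads of 90 bp from another provider, and RNA came from 1 of 2 kits, per the labels' protocols. Exon entries (5852) were summed to 5648 genes.

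Each experiment was fitted apart with edgeR 4.0.16 in R 4.3.3 (glmQLFit and glmQLFTest, TMM scaling, filterByExpr with its minimum of 10 counts), 1 mean per group and 14 two-sided comparisons, with Benjamini-Hochberg adjustment over 5544 or 5559 genes. All 18 libraries of the deletion experiment shared 1 estimate of the spread. The common dispersion had a square root of 0.199 there and 0.0684 in the oxygen experiment. SEs are the size of the log2 fold change over the root of F. Levels are TMM-scaled CPM. The fits were also run on simulated counts, drawn for each library independently with the estimated dispersions. These counts lack any link between same-numbered libraries, so no support is drawn from them.

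Same-numbered hypoxia and normoxia libraries deviated together (correlations across genes of 0.152, 0.307 and 0.137, all above 0.1), so their numbers were taken to pair them. Alternatives were DESeq2 1.42.0 and its size factors, total counts, no filter, a length correction, a replicate block, only the groups compared and leaving out each library. Genes given library by library were, for each complex, the largest and smallest subunit change with CoCl2 in WT, its 4 largest factor changes, the 6 largest calls in hypoxia and any rise there, and up to 6 calls with the smallest adjusted p in each deletion comparison and each difference in response. QCR9 in hypoxia, SDH8 in rox1/rox2 without CoCl2, COX12 with CoCl2 in the deletion strains and ATP12 in rox1 were added after their values were seen. The members, lists and rules were chosen with earlier results of these data known.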

Additional observations from a re-analysis of the deposited data

Results flagged for a closer look

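A test of the difference itself found that 4 genes responded less to CoCl2 in rox1 than in WT. The differences of log2 fold changes were -1.22 for ATP3, -1.37 for COX13, -1.62 for COX7 and -2.03 for QCR7 (edgeR's quasi-likelihood test, adjusted p = 0.0479, 0.0305, 0.0327 and 0.0435). Leaving out single libraries gave 0 to 13 such genes among the 48.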

How the results depend on the processing

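Of 44 gene values given library by library, tried 577 times in all under other settings, 463 of these tries kept direction and side of the threshold, 105 lost the call, 5 gained one and 4 reversed. The reversals were COX7 (-0.01) and ATP19 (-0.06) in rox2 against WT with CoCl2 under the length correction, and -0.04 and -0.07 with the replicate block as well. The counts in hypoxia, with CoCl2 in WT and with CoCl2 in rox2 stayed within 1.5 times under every setting.

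With only the groups compared, CoCl2 in rox1 gave 0 calls, CoCl2 in rox1/rox2 gave 4, rox1/rox2 against WT without CoCl2 gave 33, and with CoCl2 rox1 gave 2, rox2 0 and rox1/rox2 0, while the rox1/rox2 response differed in 2. DESeq2 gave 1, 1 and 2 calls without CoCl2 in rox1, rox2 and rox1/rox2, 11 and 7 with CoCl2 in rox2 and rox1/rox2, and 12, 1 and 4 differences in response in rox1, rox2 and rox1/rox2. Total counts gave 2 and 1 calls with CoCl2 in rox2 and rox1/rox2 and 1 difference in response in rox1. The length correction gave 0 calls in rox2 with CoCl2 and response differences in 8 genes in rox1 and 1 in rox1/rox2. The replicate block with the length correction gave 0, 13 and 1 for the same results.

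Leaving out 1 library gave 3 to 14 calls with CoCl2 in rox1/rox2, 0 to 3 in rox1 without CoCl2 (3 without rox1 replicate 2), and with CoCl2 4 to 25 in rox1, 1 to 4 in rox2 and 0 to 4 in rox1/rox2. Response differences ranged from 0 to 13 in rox1 and 0 to 2 in rox1/rox2. Leaving out rox2 replicate 3 and rox2 CoCl2 replicate 1 together, chosen after seeing their reads outside genes (14.47% and 19.88%), gave 2 calls in rox2 with CoCl2. The cause of these changes was not tested. Shares of all tested genes called in the fits without 1 library are not given, here or where such counts appear earlier. Whether the counts moved with the calls over all genes is therefore not shown.

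The complex IV median in hypoxia was -0.52 with the length correction, -0.53 with block and length correction, and -0.68 to -0.57 without 1 library. With CoCl2 in WT it was 2.60 with total counts, 2.54 with the block, 2.67 with the length correction, 2.80 with both and 2.19 to 2.47 without 1 library. The complex III median was 2.64 with total counts, the ATP synthase median 1.04 to 1.73 without 1 library, and the factor median 0.79 with total counts and 0.24 to 0.70 without 1 library.

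In the deletion experiment the replicate numbers were not taken to pair the libraries. Pairing by correlation was set to need 3 pairs, all above 0.1, and the comparison with 3 (rox2 against WT without CoCl2) had 0.0943, -0.2 and -0.0843. Every group with CoCl2 had 2 libraries, so no comparison with such a group could meet this rule, and it cannot decide pairing there. Same-numbered CoCl2 libraries correlated with WT CoCl2 at 0.254 (rox1), 0.732 (rox2) and 0.658 (rox1/rox2), and with their own untreated libraries at -0.305 to 0.331. Those with WT CoCl2 were all above 0.1, and the strain comparisons with CoCl2 were reported unpaired all the same. The spread behind their p-values therefore includes any difference that same-numbered libraries share. Their counts with the replicate block alone are not given here. The replicate block gave 11 response differences in rox1 in place of 4 and 12 calls with CoCl2 in rox1, against 11 with the numbers crossed. Most groups there have 2 libraries. The lowest count behind a level was 19 reads (SDH8 in rox2 replicate 3).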

Other observations

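In every strain the replicates with CoCl2 differed in these genes. Of the 29 subunits, 26 were higher in replicate 1 than in replicate 2 in rox1, 26 in rox2, 25 in rox1/rox2 and 26 in WT. The median ratio of replicate 1 to replicate 2 over the subunits was 1.53 in rox1, 1.42 in rox2, 1.21 in rox1/rox2 and 1.27 in WT, while over all genes with 10 or more counts in both libraries it lay between 0.987 and 0.991. Of the 19 assembly factors, 14 were higher in replicate 1 in rox1, 16 in rox2, 13 in rox1/rox2 and 18 in WT, with median ratios of 1.17, 1.20, 1.17 and 1.45. Summed over the subunits, levels were 2633 and 1582 CPM in rox1, 6220 and 4493 CPM in rox2, 3914 and 3569 CPM in rox1/rox2, and 4912 and 3616 CPM in WT. The sums of rox1 lay below both WT values in both replicates, and the sums of rox1/rox2 lay between those of WT or just below them.

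The partner genes outside the rule gave these values beside the members. With CoCl2, 9 of the 11 partners were called lower in rox1 than in WT and all 11 had a log2 fold change below 0 (median -1.16), where 12.9% of tested genes were called lower. Their response to CoCl2 was called smaller in rox1 than in WT for 5 of 11, and 10 of 11 differences lay below 0 (median -1.29), where 3.9% of tested genes were called lower. Against WT with CoCl2, the log2 fold change of NDE1 was -3.99 in rox1 (adjusted p = 0.000863) and -3.52 in rox1/rox2 (adjusted p = 0.00206), with edgeR. CYC1 did not pass in rox1 with CoCl2 (-0.63, adjusted p = 0.147), and its response in rox1 differed from that in WT by 0.05 (adjusted p = 0.955).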
